A study of Mus musculus with 12 samples.

Results

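The genes of 2 families of nuclear RNA-binding proteins were read in common lymphoid progenitors (CLPs): the heterogeneous nuclear ribonucleoproteins (hnRNPs; symbols beginning with Hnrnp) and the serine/arginine-rich splicing factors (SR proteins; symbols beginning with Srsf). Of 47643 genes in the deposited table, 34 carried such a symbol. After 3 pseudogenes and Srsf12, whose mean level was 0.718 TPM (the length-normalised share of a library's transcripts), were set aside, 30 genes remained, 20 Hnrnp and 10 Srsf genes, each with a mean of at least 1 TPM. The rule reads the symbol and the mean over all libraries.

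CLPs are bone marrow progenitors of lymphocytes, here sorted as lineage-negative cells with low Sca1, low cKit and IL7Rα from adult, age-matched male mice, with 1 poly(A)+ RNA-seq library per mouse. The 4 WT mice were compared with 4 ∆Firre mice (KO in the sample labels), in which the whole gene and promoter of the X-linked long noncoding RNA Firre were deleted in the germline with CMV-Cre, and with 4 dox-fed Firre rescue mice. The rescue mice carried the same deletion together with a Firre cDNA behind a tet-responsive element and minimal CMV promoter, and the reverse tetracycline transactivator rtTA, so that dox induced Firre from the transgene throughout the body and not from its own locus. Transgene, transactivator, dox diet and a library number range of their own all go with the rescue group and cannot be told apart.

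hnRNPs coat nascent transcripts in the nucleus and influence splice-site choice, export and stability of the RNA, whereas SR proteins bind exonic enhancers, recruit the spliceosome and are controlled by phosphorylation of their RS domains. Many genes of both families regulate themselves through exons that lead to decay of the transcript, and a gene-level TPM adds such isoforms to the coding ones. Hnrnpu, also known as SAF-A, encodes a nuclear matrix protein that binds RNA and DNA, and it is the known protein partner of Firre RNA. The questions were therefore whether these genes, and Hnrnpu first, differed when Firre was removed and when it was supplied from a transgene.

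The libraries held the labelled state of Firre, which was listed at 0 TPM in all 4 ∆Firre libraries, at 25.2 to 31.6 TPM in WT and at 59.9 to 174 TPM in rescue. Between 10846454 and 32158791 reads per library were recovered from the TPM of the genes, and the 4 rescue libraries, from 25388436 upward, held more reads than the other 8. The CLP markers Il7r, Flt3 and Dntt averaged 424, 570.3 and 5609 TPM in WT libraries. Markers of other cells differed in the rescue group (1 value per list is the summed TPM; of all genes, 19.3% were called lower and 8.58% higher against ∆Firre). All 7 B lineage markers rose against ∆Firre, with sums of 280.3 to 370.4 in ∆Firre and 835.0 to 1340 in rescue libraries. All 6 basophil and mast cell markers fell, from 2893 to 4249 in ∆Firre to 63.5 to 142 in rescue libraries, where Ms4a2 and Gzmb averaged 0.0319 and 0.0386 TPM. Of the other lists, 4 of 5 natural killer markers, 3 of 3 tested innate lymphoid type 2 markers and 1 of 3 tested T lineage markers fell, and Areg was at 0 in every library. Plasmacytoid dendritic markers had 2 falls and 2 rises, antibody-secreting markers 3 falls and 2 rises, neutrophil and monocyte markers 2 falls of 6 tested, CLP markers 1 fall and 1 rise of 6, and erythroid markers no call. The part of these cells in the differences below was not tested, and in such bulk samples fewer cells of a type and less RNA per cell cannot be told apart.

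The promoter windows of 4 members are printed for these reasons: Hnrnpu is the known partner of Firre RNA and Hnrnpul1 its relative, while Hnrnpdl (lower in rescue) and Srsf9 (higher) were, beside Hnrnpu and Hnrnpll, the members called against ∆Firre in all 25 alternative settings. No window was found for Hnrnpll. Each runs 5′ to 3′ from 250 bases before to 50 bases after a RefSeq transcript start (GRCm38.p6), and capitals mark matches, on either strand, to the motifs searched, which may overlap. The windows are chr1:178337766-178338065 (minus strand) for Hnrnpu, chr5:100039173-100039472 (minus strand) for Hnrnpdl, chr7:25754710-25755009 (minus strand) for Hnrnpul1 and chr5:115326927-115327226 (plus strand) for Srsf9.
Hnrnpu: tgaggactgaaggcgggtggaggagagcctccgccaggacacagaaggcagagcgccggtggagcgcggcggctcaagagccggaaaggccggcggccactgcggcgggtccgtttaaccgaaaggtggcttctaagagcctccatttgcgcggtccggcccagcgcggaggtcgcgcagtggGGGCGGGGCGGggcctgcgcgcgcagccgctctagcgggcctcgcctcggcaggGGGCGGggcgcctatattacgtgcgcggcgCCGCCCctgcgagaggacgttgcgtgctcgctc
Hnrnpdl: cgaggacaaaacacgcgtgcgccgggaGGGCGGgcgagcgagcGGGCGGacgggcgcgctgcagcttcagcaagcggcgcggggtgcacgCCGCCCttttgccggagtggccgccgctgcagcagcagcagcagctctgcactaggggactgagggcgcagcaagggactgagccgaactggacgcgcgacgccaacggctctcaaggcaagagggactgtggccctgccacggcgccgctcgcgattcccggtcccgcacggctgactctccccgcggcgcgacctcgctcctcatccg
Hnrnpul1: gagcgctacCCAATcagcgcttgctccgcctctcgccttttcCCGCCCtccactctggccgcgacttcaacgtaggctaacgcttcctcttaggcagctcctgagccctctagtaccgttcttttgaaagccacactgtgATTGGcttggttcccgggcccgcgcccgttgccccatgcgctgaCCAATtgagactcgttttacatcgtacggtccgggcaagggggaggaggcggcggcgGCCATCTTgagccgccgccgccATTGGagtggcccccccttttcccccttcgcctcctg
Srsf9: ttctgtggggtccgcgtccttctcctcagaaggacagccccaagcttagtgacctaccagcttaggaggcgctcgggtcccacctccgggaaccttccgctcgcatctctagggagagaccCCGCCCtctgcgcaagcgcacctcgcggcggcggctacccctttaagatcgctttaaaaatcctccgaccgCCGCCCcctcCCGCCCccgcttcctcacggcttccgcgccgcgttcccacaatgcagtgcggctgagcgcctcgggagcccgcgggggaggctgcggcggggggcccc

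RefSeq windows were found for 28 of the 30 members, 40 windows in all. The GC box core GGGCGG was in 33 of these 40 (82.5%), against 35.7% of all 32851 windows in the table, and the capitals in Hnrnpu, Hnrnpdl and Srsf9 are all of this motif. CCAAT was in 21 of 40 member windows (52.5%) against 37.4% of all, and the Hnrnpul1 window holds it on both strands, beside 1 GC box and 1 AAGATGGC match. The other motifs searched were CCGGAAG (10 of 40 windows; 8.86% of all), TATAAA (4; 13.6%), CACGTG (5; 7.15%), AAGATGGC (1; 2.75%), the BANP palindrome (1; 0.466%) and the NRF1 palindrome (1; 0.971%). Member windows had a median GC content of 67.8%, against 52.7% for all windows. A match describes letters in the window and not a bound site, and windows of one gene can share bases.

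Both families were highly expressed in CLPs. The median of the members' mean levels was 308 TPM, against 20.4 TPM over the 14479 genes tested, and 26 of 30 members averaged more than 100 TPM. Hnrnpa1, whose protein binds splicing silencers, stood highest at 1856 TPM over the 12 libraries. Hnrnpab at 874 TPM and Hnrnpa2b1 at 810.1 TPM followed. Srsf7, a splicing factor that also serves mRNA export, was the highest SR gene at 688 TPM and Srsf4 the lowest at 96.0 TPM. Hnrnpll, a regulator of alternative splicing of the lymphocyte phosphatase CD45, was the lowest member at 14.8 TPM. Every member rested on at least 604 recovered reads in every library, the lowest number being that of Srsf9. Summed over the 30 genes, WT libraries held 11973 to 13496 TPM, ∆Firre libraries 12523 to 13137 TPM and rescue libraries 9733 to 11652 TPM, so that the rescue libraries lay below all others.

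**Figure D1:**
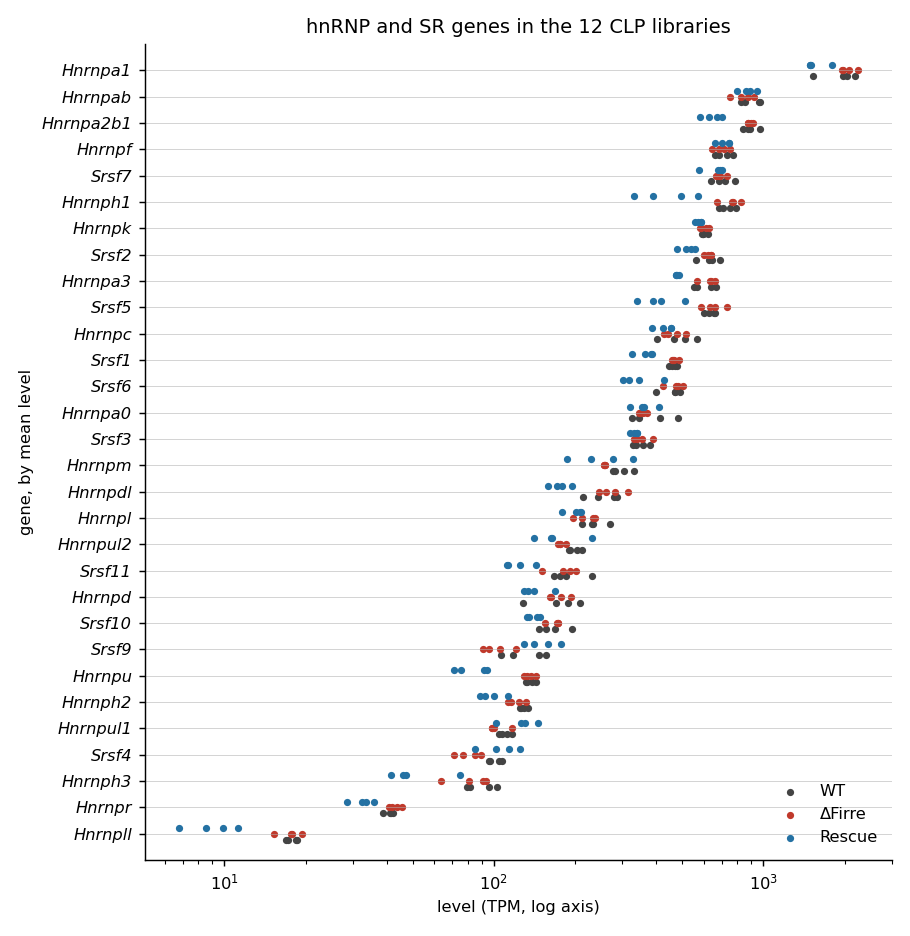
Level of each of the 30 hnRNP and SR genes in every library (x axis, TPM on a log axis; 1 row per gene, ordered by mean level; 4 points per group). Hnrnpa1 is highest and Hnrnpll lowest, and the rescue points of Hnrnpll, Hnrnpu, Hnrnph1 and Srsf5 lie to the left of the WT and ∆Firre points.

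No hnRNP or SR gene was called between ∆Firre and WT CLPs. At an adjusted p of 0.1 or less (limma with Benjamini-Hochberg adjustment over all genes tested), 0 of 30 members and 3 of all 14479 genes (0.0207%) were called, and 0 members were called by limma-voom on the recovered reads. At an unadjusted p under 0.05, 2 members stood out, against 5.3% of all genes. Their median log2 fold change was -0.02, against -0.06 over all genes, and 95% confidence intervals reached at most 0.39 to either side of the estimate. The estimates of the members lay between -0.34 for Srsf9 and 0.11 for Hnrnpdl, and their intervals reached beyond this range.

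Hnrnpu had levels of 143, 132, 138 and 132 TPM in WT replicates 6, 8, 10 and 11. In ∆Firre replicates 8, 9, 11 and 12 it had 143, 132, 129 and 138 TPM. The groups overlapped, and both averaged 136 TPM. The log2 fold change was -0.01 (SE 0.10, n = 4 libraries each, 95% interval -0.22 to 0.20), with an adjusted p of 1 by limma and p = 0.83 in a two-sided exact permutation test over 70 labelings. Within the 2 ranges of library numbers, each with 2 WT and 2 ∆Firre libraries, the difference was 0.04 and -0.06.

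The 2 genes below the unadjusted threshold were Srsf4 and Srsf9, 2 SR proteins of enhancer-dependent splicing. Srsf4 had 96.0 to 107 TPM in WT and 71.2 to 89.2 TPM in ∆Firre libraries, with no overlap. Its log2 fold change was -0.32 (SE 0.12, adjusted p = 0.929, limma), and it was -0.38 and -0.27 within the library number ranges. Srsf9 had 106 to 156 TPM in WT and 91.1 to 121 TPM in ∆Firre libraries, which overlap, and a log2 fold change of -0.34 (SE 0.14, adjusted p = 0.929, limma). Neither passed the test. Both are GC-rich, and after the correction for GC content described below the changes were -0.21 for Srsf4 and -0.19 for Srsf9, with 1 member at an unadjusted p under 0.05. Hnrnpm and Hnrnpul2 also had no overlap between the groups, so that 3 of 30 members did not, where 5.33% of all genes did not, and their adjusted p-values were 0.965 and 0.982 (limma).

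Many of these genes differed in the rescue group, but the balance of falls and rises depended on a correction for exon GC content. This correction also gave every library the same mean log2 level over the genes with a GC value. Against ∆Firre, 16 of 30 members were called lower in rescue CLPs, where 19.3% of all genes were, and 3 were called higher, where 8.58% were. After each library was corrected for exon GC content, 3 members were called lower and 10 higher, against 5.8% and 13.7% of the 13086 genes with a GC value. Values that follow are uncorrected unless said otherwise, and among the members the falls of Hnrnpu, Hnrnpll and Hnrnpdl passed after correction. The members' median log2 fold change was -0.27, against -0.16 over all genes tested. With the correction for GC content this median was 0.09, against 0.08 over all genes with a GC value. Of the Hnrnp genes 10 of 20 fell and 1 rose. Of the Srsf genes 6 of 10 fell and 2 rose. After correction 3 Hnrnp genes were lower and 5 higher, and 0 Srsf genes were lower and 5 higher. The groups did not overlap for 14 of 30 members, all of which were called, and for 21.9% of all genes.

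Hnrnpu fell. It had 91.8, 75.2, 94.7 and 71.1 TPM in rescue replicates 1 to 4, so that the highest rescue library lay below the lowest of the 8 WT and ∆Firre libraries, at 129 TPM. The mean was 83.2 ± 11.8 TPM (SD, n = 4) against 136 ± 6.25 TPM in ∆Firre, a log2 fold change of -0.71 (SE 0.10, 95% interval -0.92 to -0.50, adjusted p = 0.000696, limma), or 0.613 of the ∆Firre level. The two-sided exact permutation test gave p = 0.0286, the smallest that 4 against 4 libraries allow. The level rested on 4162 to 8972 recovered reads per library, and the rescue libraries had between 5998 and 8972 of them. The Hnrnpu span in RefSeq's gene table (chr1:178321108-178338891, GRCm38.p6) shares 1586 bases with that of Cox20, a mitochondrial assembly factor gene. Cox20 had 132 ± 20.9 TPM in ∆Firre and 129.6 ± 19.5 TPM in rescue libraries, and whether the authors counted reads by strand is not given in the sources used here.

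Of the 2 relatives of Hnrnpu, Hnrnpul1, whose protein acts in the DNA damage response, was called higher and Hnrnpul2 was not called. Hnrnpul1 had 98.5, 98.5, 99.8 and 116 TPM in ∆Firre and 126, 102, 145 and 129.9 TPM in rescue libraries. The groups overlapped through 1 library of each. Its log2 fold change was 0.27 (SE 0.11, adjusted p = 0.0918, limma), and the call was lost in 10 of the 12 fits with 1 library left out, those without ∆Firre replicate 12 and rescue replicate 2 being the exceptions (0.20 to 0.27, adjusted p of 0.10 to 0.185 where lost). It was 0.39 with median-ratio scaling (adjusted p = 0.00435) and 0.34 by limma-voom (adjusted p = 0.00955). Hnrnpul2 had 172 to 185 TPM in ∆Firre and 141 to 231 TPM in rescue libraries, which overlap, with a log2 fold change of -0.04 (95% interval -0.31 to 0.22, adjusted p = 0.83, limma).

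**Figure D2:**
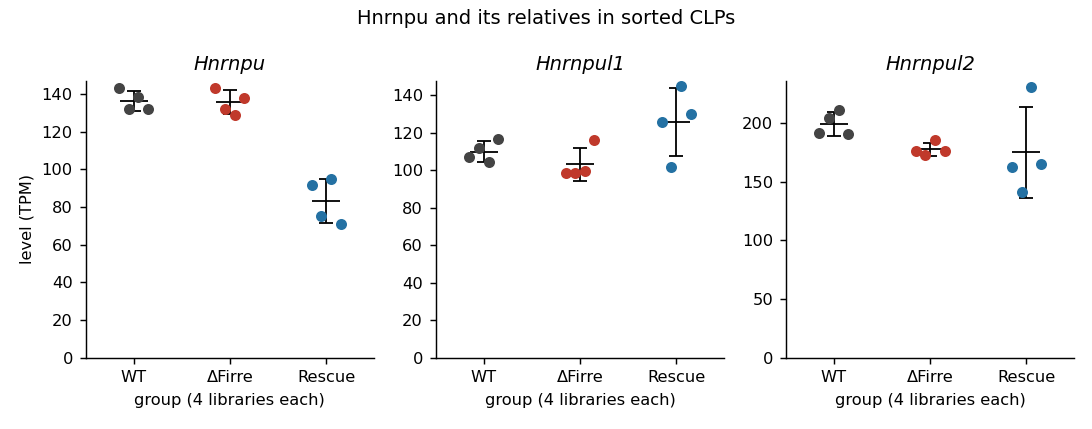
Level (y axis, TPM) of Hnrnpu, Hnrnpul1 and Hnrnpul2 in WT, ∆Firre and rescue CLPs; points are libraries, the dash is the mean and the bars are 1 SD (n = 4 per group). The rescue points of Hnrnpu, 71.1 to 94.7 TPM, lie below all others, and those of Hnrnpul1 and Hnrnpul2 overlap the ∆Firre points.

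The other large falls were spread over both families. Hnrnpll had 17.9, 19.4, 15.3 and 17.7 TPM in ∆Firre and 6.78, 11.2, 9.90 and 8.55 TPM in rescue libraries, with no overlap. Its log2 fold change of -0.89 (SE 0.16, adjusted p = 0.00335, limma) was the lowest of the 30. Hnrnph1, a binder of G-rich RNA, had 671, 827, 772 and 765 TPM in ∆Firre and 495, 331, 571 and 388 TPM in rescue libraries. All 4 rescue libraries were lower, and the log2 fold change was -0.79 (SE 0.14, adjusted p = 0.00328, limma). Of its close relatives, Hnrnph3 fell by 0.67 (SE 0.18, adjusted p = 0.0218, limma), with 1 rescue library at 74.7 TPM inside the ∆Firre range of 63.9 to 93.3 TPM, and Hnrnph2 by 0.29. Hnrnpf, of the same subfamily, had 645 to 753 TPM in ∆Firre and 660.4 to 748 TPM in rescue libraries, a log2 fold change of 0.03 that did not pass.

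Among the A/B-type hnRNPs, which bind silencers and shuttle between nucleus and cytoplasm, Hnrnpdl fell by 0.64, from 245 to 314 TPM in ∆Firre to 159 to 195 TPM in rescue libraries. Hnrnpa2b1, Hnrnpa1 and Hnrnpa3 fell by 0.46, 0.40 and 0.39, each without overlap. Hnrnpa0, Hnrnpab and Hnrnpd did not pass, at log2 fold changes of 0.02, 0.05 and -0.28. Hnrnpr, a relative of Syncrip, fell by 0.39. Hnrnpk, a binder of C-rich RNA and DNA, had the smallest standard error of the 30, at 579.8 to 629.9 TPM in ∆Firre and 556 to 586 TPM in rescue libraries (log2 fold change -0.07, 95% interval -0.20 to 0.06). Hnrnpc, which binds uridine tracts, Hnrnpl, which binds CA repeats, and Hnrnpm had log2 fold changes of -0.12, -0.13 and -0.04 and did not pass.

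Of the SR genes, Srsf5 fell most. It had 585, 733, 632 and 663 TPM in ∆Firre and 416, 389, 514 and 339 TPM in rescue libraries, with no overlap and a log2 fold change of -0.67 (SE 0.11, adjusted p = 0.00230, limma). Srsf11, Srsf6 and Srsf1, the founding member of the family, fell by 0.55, 0.45 and 0.36. Srsf2, the speckle protein SC35, and Srsf10, a splicing repressor when dephosphorylated, each fell by 0.26, and the call of Srsf10 was lost without ∆Firre replicate 8, 9 or 12 or rescue replicate 2 (adjusted p of 0.117 to 0.136, limma). Srsf3 and Srsf7, which link splicing to export, had log2 fold changes of -0.09 and -0.07 and did not pass.

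The 2 SR genes with the lowest values in ∆Firre went the other way. Srsf9 had 91.1, 96.3, 105 and 121 TPM in ∆Firre and 141, 129.7, 159 and 177 TPM in rescue libraries. The groups did not overlap, and Srsf9 rose by 0.55 (SE 0.14, adjusted p = 0.0193, limma). Srsf4 had 71.2, 77.1, 85.4 and 89.2 TPM in ∆Firre and 101, 85.0, 125 and 114 TPM in rescue libraries, where 1 library reached into the ∆Firre range. Srsf9 shares 602 bases with Gatc in the gene table. Srsf4 rose by 0.38 (SE 0.12, adjusted p = 0.0392, limma), and without ∆Firre replicate 8 its adjusted p was 0.105. As these rises and the differences from WT share the ∆Firre libraries, they are not independent.

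Against WT the same number of members, 16 of 30, were called lower in rescue CLPs, where 19.4% of all genes were, and 0 were called higher, where 4.82% were. These were the same 16 genes as against ∆Firre, and both comparisons share the rescue libraries. The median log2 fold change was -0.27 over the members and -0.21 over all genes. With the correction for GC content it was 0.03 over the members and 0.04 over all genes with a GC value. With median-ratio scaling it was -0.08 over the members and -0.03 over all genes. The groups did not overlap for 15 of 30 members, 13 of them called, and for 18% of all genes. Hnrnpu stood at 0.609 of its WT level (log2 fold change -0.72, SE 0.10, adjusted p = 0.000826, limma), and the exact permutation test again gave p = 0.0286. Hnrnpll, Hnrnph3, Hnrnph1 and Srsf5 fell by 0.92, 0.80, 0.74 and 0.64 against WT (SE 0.16, 0.18, 0.14 and 0.11; adjusted p = 0.00332, 0.0108, 0.00519 and 0.00353, limma). Hnrnpul1, Srsf4 and Srsf9 had log2 fold changes of 0.18, 0.06 and 0.21 and did not pass. Of the 16 calls, that of Hnrnpa1 (-0.29) was lost without any 1 library other than WT replicate 6 or rescue replicate 3 (adjusted p of 0.108 to 0.207), and that of Srsf10 (-0.25) without WT replicate 6 or 10, ∆Firre replicate 8, 9 or 12, or rescue replicate 1, 2 or 3 (adjusted p of 0.104 to 0.204, limma).

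**Figure D3:**
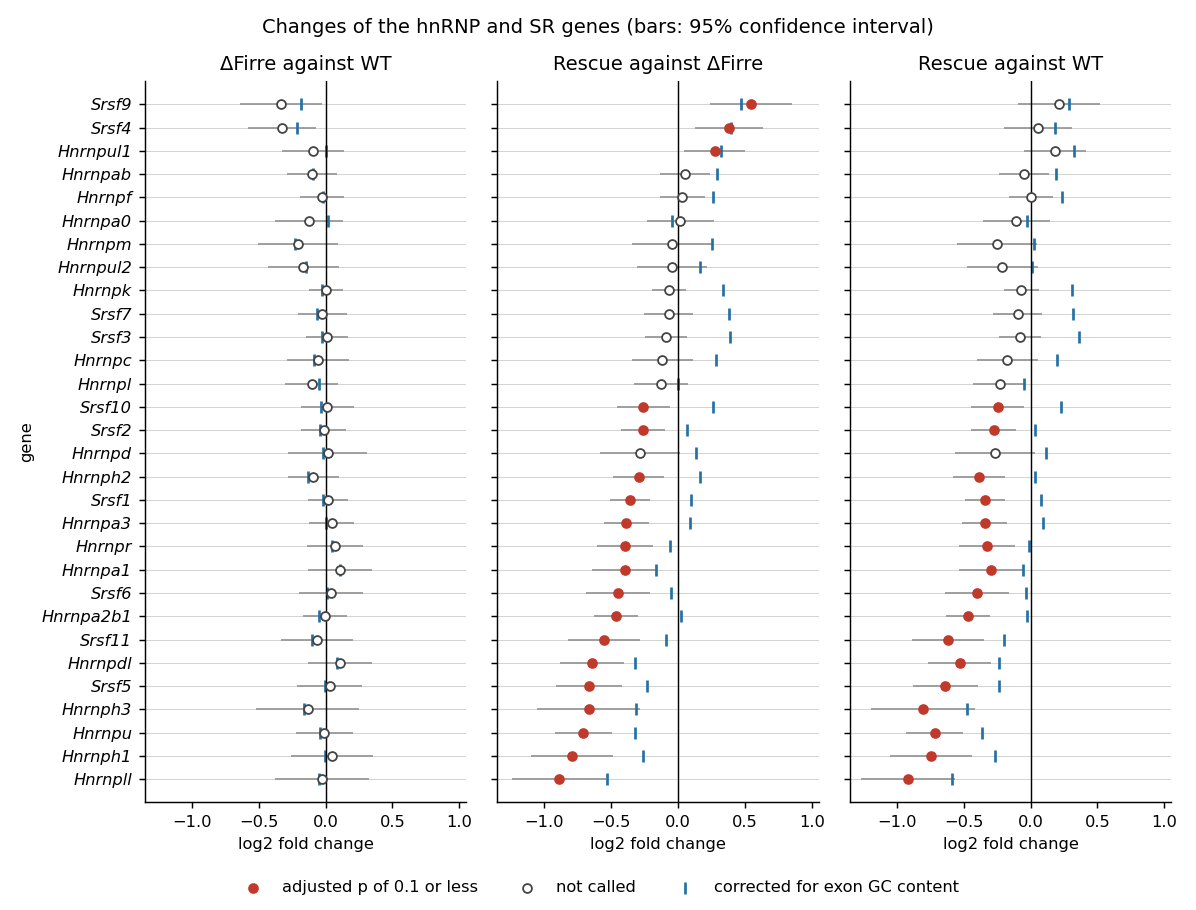
Log2 fold change (x axis) of each member (rows, ordered by the change between rescue and ∆Firre) in the 3 comparisons; circles are estimates on the log2(TPM + 1) scale, filled where called, lines are 95% confidence intervals and blue ticks are estimates after correction for exon GC content. In ∆Firre against WT all circles are open, and in both rescue comparisons most ticks lie to the right of the circles. Below 0 lie 11 of 30 ticks against ∆Firre and 13 of 30 against WT, those of Hnrnpu and Hnrnpll among them.

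The correction for GC content, which also sets all libraries to the same mean, changed most of these calls. The median change between rescue and ∆Firre was -0.16 over all genes before it. It was 0.08 over the genes with a GC value after it. How much of the changed calls goes with GC content and how much with the common mean was not tested. Over the 13086 genes with a known exon GC content, the change between rescue and ∆Firre went with GC content (Spearman's rho 0.45 across genes, which are not independent replicates), as did that between rescue and WT (0.32) and, with the opposite sign, that between ∆Firre and WT (-0.36). Most members are GC-poor genes: their median exon GC content was 44.6%, against 49.5% over all genes, and 21 of 30 lay below the latter. The 16 genes that fell had 37.3% to 49.7%, and the 3 that rose 53.5% to 55.6%. With the correction for GC content, against WT 2 were called lower and 5 higher, against 5.04% and 10.2% of the 13086 genes.

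Hnrnpu and Hnrnpll were called lower in both comparisons under this correction. Hnrnpu was lower by 0.33 than in ∆Firre (adjusted p = 0.0205) and by 0.36 than in WT (adjusted p = 0.0138, limma). Hnrnpll was lower by 0.53 (adjusted p = 0.0430) and by 0.58 (adjusted p = 0.0341, limma). Both were called in all 4 corrected fits that left out 1 rescue library, in both comparisons. Hnrnpdl was the remaining fall against ∆Firre (-0.32, adjusted p = 0.0815, limma) and was called in 1 of these 4 fits. Genes with 42% to 44% GC had a median change of -0.33 between rescue and ∆Firre before correction, with quartiles of -0.54 and -0.14, and Hnrnpu, at 44.0% and -0.71, lay below them, as did 5 other members below the quartiles of their own GC range.

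The members called higher against ∆Firre after correction were Hnrnpab, Hnrnpc, Hnrnpf, Hnrnpk, Hnrnpul1, Srsf3, Srsf4, Srsf7, Srsf9 and Srsf10. Among them Hnrnpk, Hnrnpul1, Srsf3, Srsf4, Srsf7 and Srsf9 were called in all 4 fits that left out 1 rescue library. Hnrnpul1 was higher by 0.32 against ∆Firre (adjusted p = 0.0194) and by 0.32 against WT (adjusted p = 0.0223, limma). Srsf9 and Srsf4 were higher by 0.47 and 0.40 against ∆Firre. Hnrnpk and Srsf3, which did not pass before correction, were higher by 0.34 and 0.39, and Srsf10 turned from a call lower to a call higher (0.26, adjusted p = 0.0798, limma). A scaling of the libraries by their median ratio, which moved the median of all genes from -0.16 to -0.05 for rescue against ∆Firre and from -0.21 to -0.03 against WT, gave 13 members lower and 3 higher against ∆Firre (12.9% and 13% of all genes), and 8 lower and 3 higher against WT (8.67% and 8.9%).

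**Figure D4:**
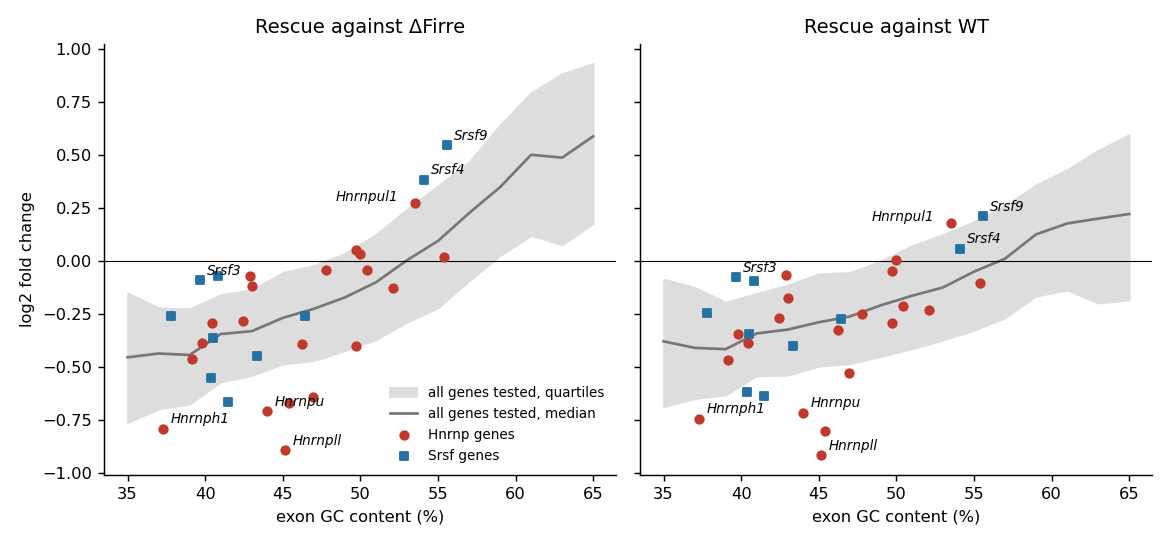
Log2 fold change (y axis) against exon GC content (x axis, percent) for the 20 Hnrnp genes (circles) and 10 Srsf genes (squares); the grey line and band are the median and quartiles of the 13086 tested genes with a GC value in bins of 2 percentage points. The line climbs from left to right in both rescue comparisons, and against ∆Firre 6 members lie below the band (Hnrnpu, Hnrnpll, Hnrnpdl, Hnrnph1, Hnrnph3 and Srsf5), 16 within it and 8 above it.

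Other genes of nuclear RNA processing were read in 5 lists with 60 genes, all of which were tested. Between ∆Firre and WT limma called 0 of the 60, with 8 at an unadjusted p under 0.05, where 5.3% of all genes were. That number was 2 after correction for GC content. With 1 library left out it ranged from 2 (without ∆Firre replicate 9) to 10 (without rescue replicate 2). Between rescue and ∆Firre 20 fell and 12 rose before correction for GC content (19.3% and 8.58% of all genes), and 3 fell and 22 rose after it (5.8% and 13.7% of the 13086 genes with a GC value). Among hnRNP proteins under other symbols, 3 of 10 fell and 3 rose. Raly, a relative of Hnrnpc, rose by 0.62 (SE 0.13, adjusted p = 0.00635, limma). The median of this list was -0.04. After correction 0 of the 10 were lower and 4 higher. SR-related splicing factors had 6 falls and 1 rise among 12 genes, and 2 falls and 3 rises after correction. Luc7l3, a U1-associated protein, fell by 0.90 (SE 0.11, adjusted p = 0.000224, limma) and remained lower after correction (-0.44, adjusted p = 0.0124, limma). Rnps1, of the exon junction complex, rose by 0.28 (SE 0.11, adjusted p = 0.0847, limma).

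The kinases and the importer of SR proteins had 6 falls of 8 genes and 0 rises before correction, and 0 calls after it (0 at an unadjusted p under 0.05). Clk1, which phosphorylates RS domains, fell by 0.58 (SE 0.11, adjusted p = 0.00539, limma). Of 9 nuclear matrix and paraspeckle RNA-binding genes 4 fell, with the largest fall for Tardbp (-0.65, SE 0.07, adjusted p = 0.000167, limma), a splicing repressor that controls its own level. After correction 1 of the 9 was lower, Tardbp at -0.22 (adjusted p = 0.0858, limma), and 1 higher, Nono, a paraspeckle protein, at 0.25 (adjusted p = 0.0652, limma). The U1, U2 and Sm core of the spliceosome went the other way. Of its 21 genes 8 rose and 1 fell, and the median of 0.26 stood against -0.16 over all genes. Sf3a2 rose by 0.84 (SE 0.15, adjusted p = 0.00271, limma) and Sf3b1, the subunit that fell, did so by 0.24 (SE 0.09, adjusted p = 0.0745, limma), a change that turned to 0.19 after correction (adjusted p = 0.166, limma). After correction 14 of the 21 were higher and 0 lower, with Snrpd1 at 1.03 (adjusted p = 0.000150, limma). Over the 25 alternative settings 5 to 14 genes of this list were called, and 2 to 6 of the nuclear matrix and paraspeckle list.

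Against WT these lists held 23 falls and 8 rises before correction (19.4% and 4.82% of all genes), and 4 falls and 14 rises after it (5.04% and 10.2% of the 13086 genes with a GC value). Luc7l3 fell by 0.92, Clk2, a second kinase of RS domains, by 0.60, Tardbp by 0.70 and Sf3b1 by 0.23. Pcbp1, a binder of C-rich RNA, and Snrpd2, an Sm protein, rose by 0.19 and 0.57. After correction Luc7l3, Clk2, Tardbp and Snrpd2 were called in the same direction, whereas Sf3b1 turned to 0.16 (adjusted p = 0.278) and Pcbp1, at 0.19, was no longer called (adjusted p = 0.209, limma). The lists were described by counts and no test was made of a list as a whole.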

How the data were processed

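Libraries were grouped by the genotype in the sample labels (4 WT, 4 ∆Firre, 4 rescue). Per the study's methods and the submitters' processing notes, the authors trimmed reads with cutadapt, mapped them to mm10 with TopHat2 2.1.1, and counted Gencode genes with featureCounts. They deposited TPM: reads divided by gene length, scaled to the same total per library. How strand and multi-mapping reads were handled, and which gene length entered the TPM, is not given in the sources used here.

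The 14479 genes averaging 1 TPM or more were set to log2(TPM + 1), so fold changes of low genes are understated. All 12 libraries entered one limma 3.58.1 fit with a mean-variance trend (R 4.3.3). P-values were two-sided, Benjamini-Hochberg adjusted over all genes, and called at 0.1 or less. Hnrnpu was also compared by exact permutation tests (Python 3.11.15, scipy 1.17.1). With 1 library per mouse, the spread includes differences between mice. For the depth of each library, whole reads were worked out from steps between low TPM values (99.5% of tested genes, tolerance 0.02 of a read). Reads carry no molecular identifiers, so read numbers cover counting error only.

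GENCODE vM1, older than the authors' annotation, gave exon GC content and length by gene identifier. It covered 90.4% of tested genes and all 30 members. Each library was corrected by splines with 4 degrees of freedom and an intercept. The correction therefore also gave all libraries the same mean log2(TPM + 1) over the genes covered. Positions and promoter windows are RefSeq's on GRCm38.p6. The fit was tried on simulated data with and without known changes. The correction was tried on simulated data without changes, after a GC trend was added to the rescue group. Whether true changes survive the correction was not tested. Members may all be named, with full statistics for Hnrnpu, Hnrnpul1, Hnrnpul2, and the 5 largest rises and falls among called members of a comparison, and of each other list the called gene with the largest rise and fall, 1 of which is not reported here. The members and lists were chosen with earlier results of these data known. Alternatives were other pseudocounts, filters, scalings, thresholds, fits and left-out libraries. Fits restricted to genes with GC values, corrected for GC content and length, or corrected with a rescue library left out were chosen after seeing the data. Proteins were not analysed here.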

Additional observations from a re-analysis of the deposited data

Results flagged for a closer look

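Each member was compared among the 4 libraries of each group on log2(TPM + 1), 90 sets of 4 values in all, and in 3 of them 1 library stood apart by Dixon's 95% criterion. Chance alone flags about 4.5 of 90 such sets. Hnrnpa1 stood at 10.82 in rescue replicate 3 (1802 TPM), while the other 3 rescue libraries lay between 10.54 and 10.56. Hnrnpul1 stood at 6.88 in ∆Firre replicate 12 (116 TPM), against 6.64 to 6.66 in the other 3. Srsf10 stood at 7.28 in ∆Firre replicate 11 (155 TPM), against 7.43 to 7.44 in the other 3. The cause was not tested.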

How the results depend on the processing

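Hnrnpu and Hnrnpll were called lower in rescue CLPs under all 25 alternative settings in both rescue comparisons. Against ∆Firre, Hnrnpdl was called lower and Srsf9 higher in all 25. Hnrnpu ranged from -0.77 to -0.33 against ∆Firre and from -0.78 to -0.36 against WT. Its exact permutation p of 0.0286 is the smallest these designs allow and says nothing of stability. No member was called between ∆Firre and WT in 26 alternatives. The Hnrnpu difference there turned positive by the median ratio (0.060), quantile normalization (0.047), without abundant gene classes (0.037) and by limma-voom (0.045). With 1 library left out it ranged from -0.036 to 0.014 (exact permutation p of 0.40 to 1; 0.971, 0.857 and 0.83 without ∆Firre replicates 9 and 11 and WT replicate 6, where it turned positive).

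Correction for GC content changed the calls most. Against ∆Firre it left 3 lower and 10 higher members, with exon length also corrected 4 and 9, and with 1 rescue library left out 2 to 6 lower and 6 to 10 higher, 8 to 16 in all (10, 12, 16 and 8 without replicates 1 to 4). Against WT it left 7 calls (2 lower, 5 higher), with length 9 (3 and 6), and with 1 rescue library left out 5 to 9 (7, 6, 9 and 5 without replicates 1 to 4; 2 to 5 lower, 3 to 5 higher). The other lists went to 18 calls against WT, and without rescue replicates 1 to 4 in turn to 21, 21, 24 and 17 against ∆Firre and 16, 13, 23 and 12 against WT. Among members called before correction, the sign against ∆Firre turned under correction for GC content, and for GC content with length, for Hnrnpa3 (0.087; 0.046), Hnrnph2 (0.16; 0.14), Srsf1 (0.096; 0.065), Srsf2 (0.070; 0.058) and Srsf10 (0.26; 0.17), and under the first for Hnrnpa2b1 (0.025). Against WT it turned for Hnrnpa3 (0.090; 0.092), Hnrnph2 (0.035; 0.042), Srsf1 (0.076; 0.084), Srsf2 (0.031; 0.036) and Srsf10 (0.22; 0.20). Of members not called before, 9 also turned under correction for GC content against ∆Firre and 8 against WT.

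Scaling by the median ratio gave 8 members lower and 3 higher against WT. Quantile normalization, removal of abundant gene classes and limma-voom each gave 1 higher. With 1 library left out, 1 to 3 members were higher against ∆Firre and 0 to 1 against WT. The other lists against WT had 20 calls with only the 2 groups compared and 20 at an adjusted p of 0.05, and 19 (without rescue replicate 4) to 36 (without rescue replicate 3) with 1 library left out. The cause of these changes was not tested.

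WT and ∆Firre share only the replicate numbers 8 and 11, which no source ties to a pairing. Their deviations correlated at -0.0328 and -0.0411, and the replicate block left 19 and 16 members called and Hnrnpu at -0.71 against ∆Firre and -0.72 against WT. Each member rested on at least 604 reads in every library, rescue libraries were deeper than the others, and the part of depth was not tested.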

Other observations

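Within the rescue group, replicates 1 and 3 had 91.8 and 94.7 TPM of Hnrnpu with 59.9 and 63.0 TPM of Firre. Replicates 2 and 4 had less Hnrnpu, 75.2 and 71.1 TPM, with more Firre, 135 and 174 TPM. This order was not particular to Hnrnpu. Replicates 1 and 3 both lay above replicates 2 and 4 for 13 of 30 members, Hnrnph1, Srsf5 and Hnrnpa2b1 among them, and for 22.9% of all genes tested, and both lay below them for 2 members and 10.7% of all genes. The summed B lineage markers were 835.0 and 889 TPM in replicates 1 and 3 and 1025 and 1340 TPM in replicates 2 and 4. These 4 libraries are too few for a correlation, none was computed, and the values were singled out after they were seen.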
